A study of Mus musculus with 2 samples.

Results

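A set of 10 genes that mark or serve macrophages were followed here across the only libraries of a mouse study of chronic intermittent hypoxia (CIH), which mimics the falls in oxygen of sleep apnoea. Members were chosen by symbol and make up 10 of the 49315 genes in the count table. They comprise the receptor genes Adgre1, Csf1r, Mertk, Mrc1 and Cd163, the complement C1q chain genes C1qa, C1qb and C1qc, the apolipoprotein gene Apoe, and the monocyte receptor gene Ccr2. RNA came from cells labelled as macrophages of the dorsal root ganglion, where the cell bodies of sensory neurons lie. CIH mice had chamber oxygen cycled between 21% and 8% every 6 min for 8 h a day over 14 days. Normoxic mice stayed at 21% in chambers run the same way, and both groups had been moved into the chambers 5 to 7 days before. Collection followed about 18 h after exposure ended. The sources used here do not give the strain, age, the way the macrophages were isolated or the number of mice behind a library. Each group had 1 library, so no difference has a replicate check, no test across conditions was made, and all 95% intervals cover counting error only. Only the initial of its code ties the CIH column to that group.

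Macrophages depend on the CSF1 receptor, the product of Csf1r, for survival and growth, and F4/80, the product of Adgre1, is the classical surface marker of mouse macrophages. MerTK recognises dying cells through bridging proteins, the mannose receptor encoded by Mrc1 takes up glycoproteins, and CD163 takes up haemoglobin bound to haptoglobin. C1q, built from an A, a B and a C chain, starts the classical complement pathway and is made largely by tissue macrophages. ApoE carries lipid between cells and is made by macrophages and by glia. CCR2 binds the chemokine CCL2 and guides inflammatory monocytes out of the marrow and into tissue. In ganglia, resident macrophages lie around the sensory neurons, and monocytes can join them after injury.

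The normoxia library held 2171348 counts and the CIH library 145056, which is 15.0 times fewer. Levels are given as CPM, counts scaled to the same library total. A gene with 0 counts may still have up to 3 reads, which is 1.38 CPM in normoxia and 20.7 CPM in CIH. Reads are copies of fewer starting molecules, and genes counted in a single library with at least 10 counts had a median of 229 reads in normoxia (quartiles 136 and 388, 3087 genes) and 39 in CIH (26 and 52, 757 genes). If such genes mostly stem from 1 molecule, which was not tested, the libraries came to about 9482 and 3719 molecules. On that scale 3 molecules in CIH correspond to 807 CPM, and a gene below that level in normoxia could be missed in CIH by counting alone. Both scales are therefore given. A gene was called lower or higher on reads when its CPM differed at least 2-fold, with a 0 taken as 3 reads. On molecules, a 0 was taken as 3 molecules, and the interval also had to exclude equality. A gene at 0 in CIH could thus be called lower on molecules only at 2-fold or more above 807 CPM in normoxia.

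In the normoxia library 9 of the 10 genes were counted, and in the CIH library Apoe alone was counted. The genes that passed a minimum of 50 counts over both libraries were 9, all but Mertk. On reads each of these 9 was lower in CIH, where 67.0% of all 4215 genes tested were lower and 16.1% higher. The 8 genes counted in normoxia alone could only come out lower, so that count is a description and no support. At 4-fold 8 of the 9 were lower, beside 48.6% of all genes. On estimated molecules 1 of the 9, Apoe, was lower, against 0.285% of all genes (12 of 4215), and none was higher, against 0.830%. All of those 12 but Slc4a1 (4373) had at least 5000 normoxia counts, as did only 30 genes in all. The 0.285% is thus no measure for a gene as abundant as Apoe. The other 8, at 1063 CPM or less in normoxia and 0 in CIH, could not be called lower on molecules. In such bulk samples fewer cells of a type and less RNA per cell cannot be told apart.

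**Figure D1:**
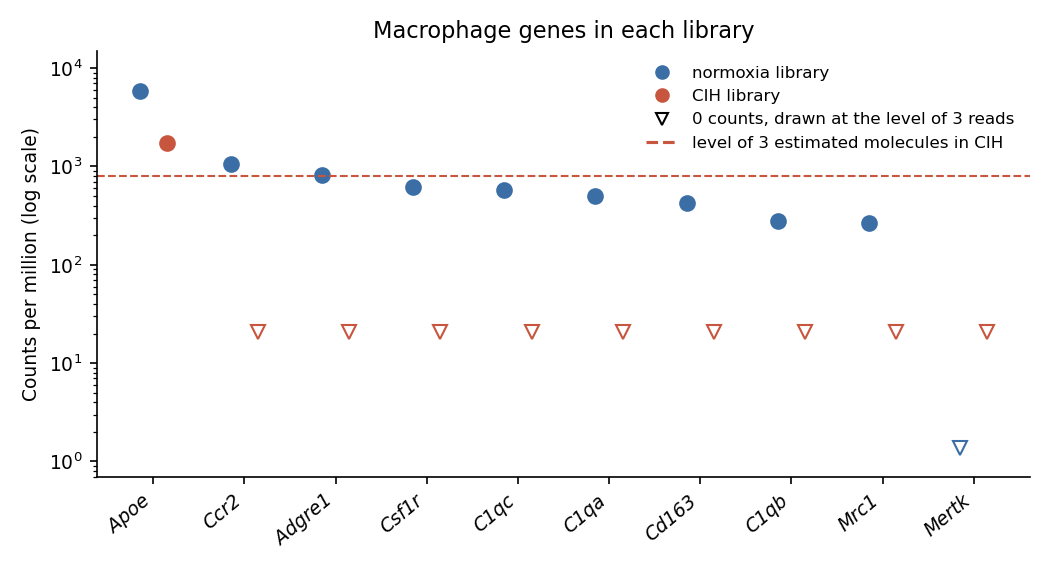
Level (CPM) of the 10 genes in the normoxia library (blue) and the CIH library (red), on a log axis. Filled circles are measured levels, open triangles are 0 counts drawn at the level of 3 reads, and the dashed line is the level of 3 estimated molecules in CIH, 807 CPM. Only Apoe has a measured level in CIH, and in normoxia Apoe, Ccr2 and Adgre1 lie above the dashed line. Of these, Apoe alone lies 2-fold or more above it, the height from which a 0 in CIH could be called on molecules.

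Among the macrophage receptors, Adgre1 (ENSMUSG00000004730, chromosome 17, 57358691 to 57483527, GRCm38 throughout) had the highest level in normoxia, also per transcript length. It had 1764 counts there, or 812 CPM (exact Poisson interval 1683 to 1848 counts), and 0 in CIH. On reads that is at least 39.3-fold lower in CIH. On molecules the bound is 1.01-fold, and the interval included equality. Csf1r (ENSMUSG00000024621) had 1326 counts (611 CPM) in normoxia and 0 in CIH. An equal share of the CIH library would have been 88.6 reads, or 2.27 estimated molecules. Its absence was at least 29.5-fold on reads and not detectable as a difference on molecules.

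The uptake receptor genes Cd163 and Mrc1 stood below Adgre1 and Csf1r in normoxia, also per transcript length. Cd163 (ENSMUSG00000008845, chromosome 6, 124304656 to 124330527) had 928 counts (427 CPM) in normoxia and 0 in CIH, at least 20.7-fold lower on reads. Mrc1 (ENSMUSG00000026712, chromosome 2, 14229392 to 14332057) had 584 counts (269 CPM) and 0, at least 13-fold lower on reads. At an equal share Cd163 would have come to 1.59 estimated molecules in CIH and Mrc1 to 1.00, so neither absence was detectable on molecules. Mertk (ENSMUSG00000014361, chromosome 2, 128698956 to 128802894) had 0 counts in both libraries. Taken as 3, a count of 0 allows up to 1.38 CPM on reads in normoxia but up to 316 CPM on molecules, more than the level at which Mrc1 was counted. The 4 receptors counted in normoxia summed to 4602 counts there, 0.212% of the library (Clopper-Pearson interval 0.206% to 0.218%), and 0 in CIH. Their sum, about 20.1 estimated molecules in normoxia, was 2.63-fold lower in CIH on molecules with a 0 taken as 3. The interval of the ratio reached up to 0.514, so its end fell short of 2-fold. No single receptor gene was called on that scale, as none stood high enough in normoxia to be called with 0 in CIH. Counted in normoxia alone, all 4 could only come out lower as a sum.

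The C1q chain genes lie side by side within 18.675 kb of chromosome 4, in the order C1qb (ENSMUSG00000036905, 136880129 to 136886187), C1qc (ENSMUSG00000036896, 136889804 to 136893065) and C1qa (ENSMUSG00000036887, 136895917 to 136898803), all on the reverse strand. Gaps of 3616 and 2851 bases separate them. In normoxia C1qc had 1253 counts (577 CPM), C1qa had 1092 (503 CPM) and C1qb had 610 (281 CPM). All 3 chains had 0 counts in CIH. Equal shares of the CIH library would have been 83.7, 73.0 and 40.8 reads, or 2.15, 1.87 and 1.04 estimated molecules. On reads C1qc was at least 27.9-fold, C1qa at least 24.3-fold and C1qb at least 13.6-fold lower. Summed, the chains took 0.136% of the normoxia library (0.131% to 0.141%) and 0 of 145056 counts in CIH. Taken as 3 reads, that 0 is a share of 0.00207%, and its Clopper-Pearson limit is 0.00254%. The sum of the chains was about 12.9 estimated molecules in normoxia, with 5.06 at an equal share in CIH. With the 0 taken as 3, it was 1.69-fold lower on molecules, with an interval for the fold that starts at 1.19, short of the 2-fold rule. Scaled to housekeeping genes without Actb, the interval started at 0.902 and included equality. All 3 chains, counted in normoxia alone, could only come out lower.

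RefSeq promoter windows (GRCm38.p6) were matched for 7 of the 10 genes. Adgre1, Csf1r and C1qa were not matched. The 250 bases before the start are printed for C1qb and C1qc, neighbours on the same strand that were both at 0 in CIH, for Apoe, the single gene counted in both libraries, and for Mrc1, a receptor at 0 in CIH. Capitals mark GAGGAA, the core of sites for PU.1, a transcription factor that myeloid cells depend on, on either strand, so that its reverse complement also appears.
C1qb: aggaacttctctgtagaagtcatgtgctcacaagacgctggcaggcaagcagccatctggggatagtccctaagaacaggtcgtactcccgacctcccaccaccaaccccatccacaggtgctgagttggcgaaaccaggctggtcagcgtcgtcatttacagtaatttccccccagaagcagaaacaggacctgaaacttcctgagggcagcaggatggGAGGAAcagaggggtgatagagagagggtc
C1qc: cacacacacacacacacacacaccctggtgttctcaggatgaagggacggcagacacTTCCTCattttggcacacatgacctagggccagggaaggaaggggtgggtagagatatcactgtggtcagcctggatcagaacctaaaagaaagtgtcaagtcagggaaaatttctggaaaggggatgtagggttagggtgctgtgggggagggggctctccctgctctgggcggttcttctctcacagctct
Apoe: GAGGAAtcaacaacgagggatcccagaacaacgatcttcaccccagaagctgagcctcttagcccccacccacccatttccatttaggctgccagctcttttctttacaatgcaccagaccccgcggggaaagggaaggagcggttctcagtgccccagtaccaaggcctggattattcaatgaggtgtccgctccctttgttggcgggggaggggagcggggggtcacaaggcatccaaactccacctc
Mrc1: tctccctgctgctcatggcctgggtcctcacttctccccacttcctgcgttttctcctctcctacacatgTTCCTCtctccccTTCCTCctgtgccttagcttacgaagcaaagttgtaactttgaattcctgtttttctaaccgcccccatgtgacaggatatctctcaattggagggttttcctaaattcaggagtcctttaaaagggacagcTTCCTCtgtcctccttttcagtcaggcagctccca
These windows are chr4:136886201-136886450 on the reverse strand, chr4:136892915-136893164 on the reverse strand, chr7:19699189-19699438 on the reverse strand and chr2:14229164-14229413 on the forward strand. The C1qc start in RefSeq lies 151 bases from the GENCODE M21 start. The match lay 25 to 30 bases before the start in C1qb, 188 to 193 in C1qc and 245 to 250 in Apoe. Mrc1 held 3 matches, at 30 to 35, 162 to 167 and 175 to 180 bases. In all, 4 of the 7 windows held GAGGAA, as did 23.3% of all 32851 windows of this length. TGCTGAC, part of the recognition element of MAF factors, was in 0 of the 7 windows and in 3.81% of all. The AP-1 site TGACTCA was in 0 and in 4.46% of all. The TATA box letters TATAAA were in 0 and in 12.4% of all. Each was searched on both strands, and no motif overlapped another in the 7 windows. The letters are a description, and C1qb and C1qc share GAGGAA with Apoe, which was counted in both libraries.

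Apoe (ENSMUSG00000002985, chromosome 7, 19696109 to 19699188) was the most abundant of the 10 genes in both libraries and the only one with a measured ratio. It had 12776 counts in normoxia (12555 to 13000), the ninth rank of all genes, and 249 counts in CIH (219 to 282), rank 50. As shares these were 0.588% (0.578% to 0.599%) and 0.172% (0.151% to 0.194%), or 5884 and 1717 CPM. Apoe was 3.43-fold lower in CIH. The interval ran from 3.02 to 3.90 for reads and from 1.51 to 9.39 for molecules. It came to about 55.8 estimated molecules in normoxia and 6.38 in CIH, where an equal share would have been 21.9.

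The direction for Apoe was the same under each of the 6 other scalings. It was 5.98-fold lower with TMM, a scaling on genes counted in both libraries, and 2.61-fold lower when scaled to housekeeping genes without Actb. Of the 18 housekeeping genes 16 could be read, with 7 lower, 3 higher and 6 neither on reads. Leaving red cell and neutrophil genes out of the totals gave 3.19-fold. On molecules the lower end of the interval ran from 1.15 to 2.64 over these scalings.

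**Figure D2:**
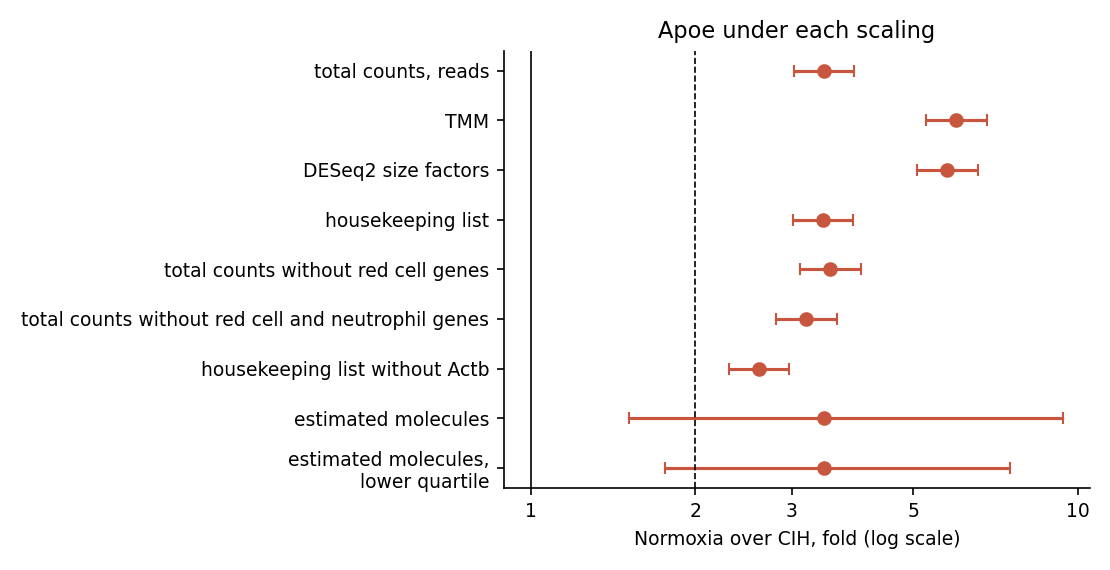
Fold by which Apoe was lower in CIH (normoxia over CIH, log axis) under each scaling, with 95% counting intervals on reads, or on molecules in the last 2 lines. The solid line is equality and the dashed line is 2-fold. All points lie between 2.61 and 5.98, and the molecule intervals reach down to 1.51 and 1.76.

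Apoe was compared with genes of like abundance. The 4 genes nearest to it in normoxia count were the calprotectin gene S100a9, a neutrophil gene with 11656 and 4197 counts, the elongation factor gene Eef1a1 with 13932 and 418, the actin-binding gene Tmsb4x with 11053 and 898, and the globin gene Hba-a2 with 10944 and 725. Apoe had the fewest CIH counts of these. Among the 30 genes with at least 5000 normoxia counts the median ratio of CIH to normoxia was 0.712, 13 were lower by the 2-fold rule, and 7 had a lower ratio than the 0.292 of Apoe. The genes nearest to Apoe over both libraries, by distance in log2 CPM, were Psap (9005 and 197 counts), which encodes the precursor of the lysosomal saposins, Eef1a1, the ferritin heavy chain gene Fth1 (7517 and 232) and the globin gene Hbb-bt (17184 and 489). Over only 2 libraries such likeness is a description. The 12 genes lower on molecules, listed after their values were seen, were Apoe, Psap, Eef1a1, the cathepsin gene Ctsb, the globin and red cell genes Hbb-bt, Car2, Alas2 and Slc4a1, the mitochondrial genes mt-Co1 and mt-Cytb, Pabpc1, which binds mRNA tails, and the actin-binding gene Pfn1. None of the other 9 macrophage genes was among them.

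**Figure D3:**
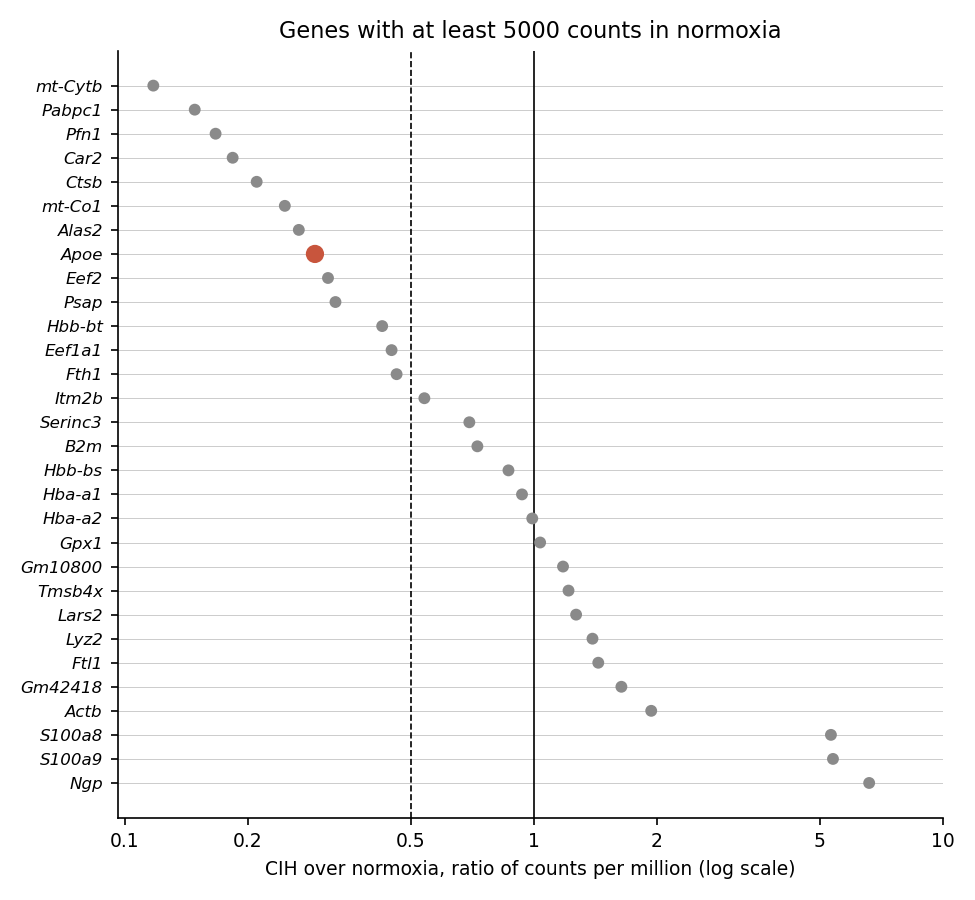
Ratio of CPM in CIH over normoxia (log axis) for the 30 genes with at least 5000 counts in normoxia, sorted by ratio, with Apoe in red. The solid line is equality and the dashed line a 2-fold lower level. Apoe lies at 0.292 with 7 genes to its left, and the neutrophil genes S100a8, S100a9 and Ngp lie at the far right.

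Ccr2 (ENSMUSG00000049103, chromosome 9, 124101950 to 124113557) was the next most abundant gene by counts. It had 2308 counts (1063 CPM, 2215 to 2404 counts) in normoxia and 0 in CIH. At an equal share the CIH library would have held 154 reads, or 3.95 estimated molecules. It was at least 51.4-fold lower on reads and at least 1.32-fold lower on molecules, under the 2-fold rule, and its molecule interval included equality. Of the 89 genes with at least 2000 and under 5000 normoxia counts, 12 (13.5%) had 0 counts in CIH, Ccr2 among them, and 6 genes with 0 in CIH had more normoxia counts than Ccr2. Within 10% of its normoxia count lay 23 other genes, 6 of them at 0 in CIH, with a median of 55 counts there.

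Absence from CIH depended on abundance for all genes. Of 4640 genes counted in normoxia, 75.0% had 0 counts in CIH, falling from 87.1% of those under 50 counts to 82.2% under 200, 80.0% under 500 and 0 of 30 with at least 5000. Mrc1, Cd163 and C1qb fell in the bin from 500 to under 1000 counts, in which 59.2% of 608 genes were at 0. Adgre1, Csf1r, C1qa and C1qc fell in the bin from 1000 to under 2000 counts, in which 40.8% of 250 genes were at 0. Over both bins 53.8% of 858 genes were at 0, beside 7 of the 7 macrophage genes, and the share of counts of all these genes was 0.590 of that in normoxia. Members were chosen with earlier results of these data known, so the 7 of 7 is a description and no support. Of the genes within 10% of the normoxia count of Adgre1, 8 of 43 (18.6%) were at 0, with a median of 81 CIH counts. Around Ccr2 the share was 26.1%, around Csf1r 40.8%, around C1qc 42.4%, around Cd163 48.6% and around C1qa 49.1%. It was 63.5% around C1qb and 66.2% around Mrc1, both with a median of 0 CIH counts. The absence of C1qb and Mrc1 was thus shared by most genes of their abundance. That of the other 6 genes was shared by fewer, from 18.6% around Adgre1 to 49.1% around C1qa.

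**Figure D4:**
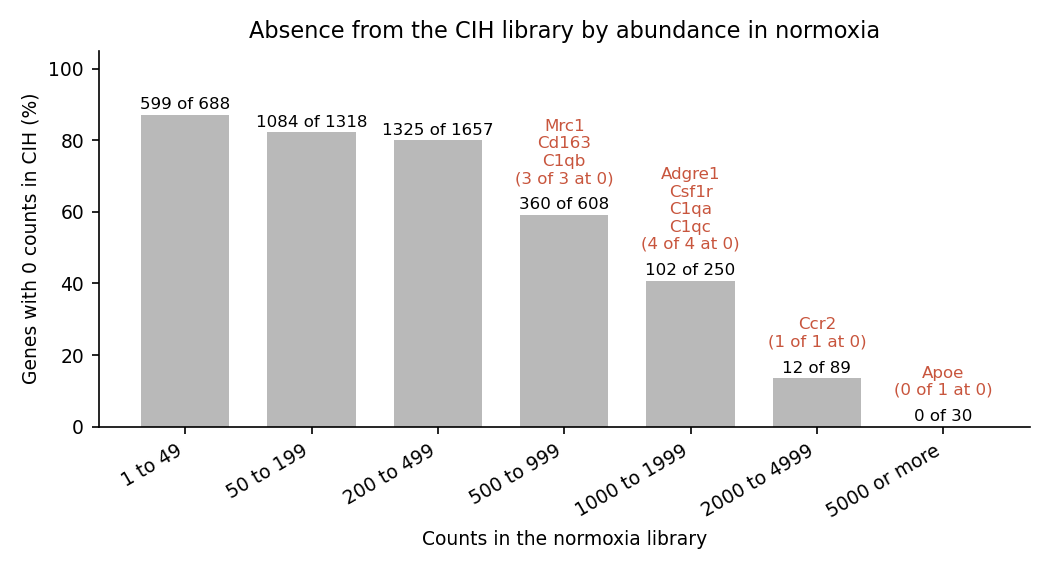
Share of genes with 0 counts in the CIH library (bars, %), by bins of their count in the normoxia library. Numbers above the bars give genes at 0 of all genes in the bin, and red text names the macrophage genes in each bin and how many were at 0. The bars fall from 87.1% to 0 with abundance, and 8 of the 9 genes named are at 0.

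Levels of different genes can be compared only per transcript length, as in the TPM values that the authors deposited. In normoxia Apoe stood at 5035 TPM, followed by C1qa at 885, C1qc at 547, C1qb at 472, Adgre1 at 458, Ccr2 at 288, Csf1r at 229, Cd163 at 143 and Mrc1 at 77.2. Per length the C1q chains thus came before all receptors, whereas by counts Ccr2, Adgre1 and Csf1r came before them. C1qb and Adgre1 were not told apart even on reads, at a ratio of 1.03 (0.939 to 1.13). Apoe exceeded C1qa 5.69-fold, with an interval of 2.26 to 18.8 on molecules. For the other 7 pairs of neighbours in this order the molecule interval of the ratio included equality. C1qa over C1qb was 1.87 (1.69 to 2.07 on reads, 0.339 to 13.8 on molecules). In CIH Apoe stood at 1127 TPM and the other 9 genes were listed at 0.

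**Figure D5:**
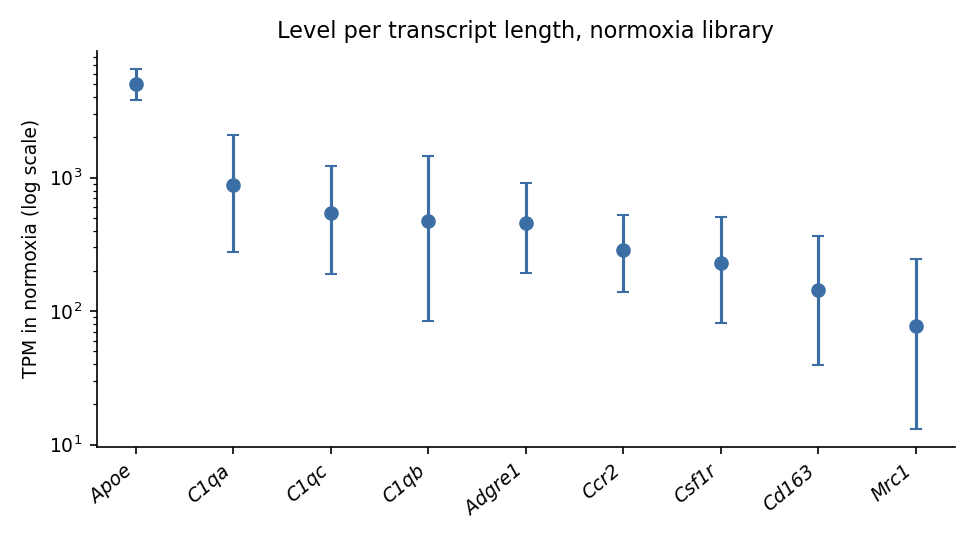
Authors' TPM of the 9 counted genes in the normoxia library (points, log axis), in order of level, with 95% intervals for counting error on estimated molecules (bars). Apoe at 5035 lies apart from the rest, and the intervals of neighbouring genes from C1qa to Mrc1 overlap.

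Other complement genes were read from a list of 32 cascade members, regulators and receptors, of which 12 were counted in normoxia and 5 in CIH. On reads 8 of 12 tested were lower, 7 of them with 0 in CIH, 3 were higher and 1 was neither, beside 67.0% lower among all genes. C3, the central component on which all complement pathways meet, had 1303 counts in normoxia and 33 in CIH, 2.64-fold lower. The integrin genes Itgb2 (1052 and 147) and Itgam (117 and 40), which together encode complement receptor 3 and which neutrophils also express, held larger shares in CIH. None of the 12 was lower or higher on molecules. C1r and C1s, the proteases that C1q activates (C1ra, C1rb, C1s1 and C1s2), had 0 counts in both libraries.

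Of 25 genes that handle lipid with ApoE, 12 were counted in normoxia and 7 in CIH, and of 13 tested 7 were lower on reads, all at 0 in CIH, 3 higher and 3 neither, a smaller share lower than the 67.0% of all genes. Their median log2 ratio was −1.14, beside −1.95 over all genes. The cholesterol-binding lysosomal gene Npc2 had 1120 and 181 counts and the signalling adaptor gene Tyrobp had 1947 and 121, held against Apoe at 12776 and 249. The lipase genes Lpl (1050 counts in normoxia) and Lipa (952) and the lipid-sensing receptor gene Trem2 (196) were at 0 in CIH, named after their values were seen. The lipoprotein genes Apoc1, Apoc2 and Apoc4 had 0 counts in both libraries.

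Around Csf1r, 17 ligand and signalling genes were read, of which 10 were counted in normoxia and 7 in CIH. On reads 7 of 11 tested were lower, 2 higher and 2 neither, near the 67.0% lower among all genes. Spi1, which encodes PU.1, had 1291 and 32 counts, 2.70-fold lower on reads. The GM-CSF receptor genes Csf2ra (1721) and Csf2rb (1271) were at 0 in CIH. The ligand genes Csf1 and Il34 had 0 counts in both libraries. Around Mertk, 20 genes for the recognition of dying cells were read, with 10 counted in normoxia and 3 in CIH. On reads 6 of 9 tested were lower, all at 0 in CIH, 2 higher and 1 neither, again near the 67.0% of all genes. The bridging protein gene Gas6 had 727 counts in normoxia and 0 in CIH, and Calr, whose product is exposed on dying cells, had 250 and 67.

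Of 18 monocyte genes read beside Ccr2, 18 were counted in normoxia and 8 in CIH. On reads 9 of 15 tested were lower, 4 higher and 2 neither, beside 67.0% lower and 16.1% higher among all genes. Ly6c2, a marker of inflammatory monocytes, had 1486 and 40 counts, 2.48-fold lower. Plac8, the most abundant of the list, had 2824 and 275 counts and was called neither way. The antiviral membrane gene Ifitm3 had 971 and 203 counts and held a larger share in CIH. As a list, monocyte genes took 0.604% of the normoxia and 0.579% of the CIH library, a ratio of 0.958. It was 0.549 with TMM and 0.570 with DESeq2 size factors, and its direction turned to 1.03 without red cell and neutrophil genes and 1.26 with the housekeeping list without Actb.

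The label of the cells was read against 8 defining macrophage genes, among them Adgre1, Csf1r, Mertk, Cd68, Aif1, Fcgr1 and C1qa. In normoxia 5 were counted, with 6124 counts or 0.282% of the library, and in CIH 0 were counted, so these markers did not show the labelled cell type in the CIH library at its depth. In a wider list of 25 macrophage genes, 22 were counted in normoxia and 13 in CIH, with 16 of 22 tested lower on reads, 1 higher and 5 neither, and Ctsb alone lower on molecules. Among all genes 67.0% were lower on reads and 0.285% on molecules. Lysozyme (Lyz2), which neutrophils also express, had 34028 and 3164 counts, and the cathepsin gene Ctss had 4825 and 168. This list took 3.34% and 2.90% of the libraries, a ratio of 0.869. It was 0.498 with TMM and 0.517 with DESeq2 size factors and turned to 1.14 with the housekeeping list without Actb. Lyz2 alone held 34028 of the 72528 normoxia counts and 3164 of the 4209 CIH counts of this list. The list ratio thus rests largely on Lyz2 and does not show that the other macrophage genes kept their share. Neutrophil genes took 1.87% of the normoxia and 10.4% of the CIH library, with 14 and 15 of 20 genes counted. On reads 9 of 14 tested were higher, beside 16.1% of all genes, and 5 were lower, all at 0 in CIH. On molecules 7 were higher and 0 lower. The neutrophil surface gene Ly6g had 0 and 110 counts and was called neither way on molecules. Red cell genes took 10.8% and 8.37%, with 22 and 15 of 24 counted. Schwann and satellite glia genes, a second possible source of Apoe, took 0.0144% and 0.128%, with 3 of 14 counted in each library. The 3 tested, Mbp (0 and 58 counts), Glul (129 and 85) and Sparc (183 and 42), were all higher in CIH on reads, and none on molecules. Mbp, counted in CIH alone, could only come out higher. Sox10 and Fabp7 were at 0 in both libraries. Fibroblast genes were counted for 3 of 7 in normoxia and 0 in CIH, B cell genes for 5 and 2 of 10, and dendritic cell genes for 3 and 1 of 9. Sensory neuron genes were counted for 1 of 18 in each library and T and NK cell genes for 1 and 0 of 10. Endothelial and mast cell genes, 7 of each, were at 0 in both. The part of these other cells in the levels of Apoe, C1q and the receptors was not tested. The scaling without red cell and neutrophil genes, given for Apoe, changes only the library totals.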

How the data were processed

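Gene expression was measured by RNA-seq (NEBNext Ultra II kit, per the labels' protocols) in 1 library of normoxic and 1 of CIH mice. The authors deposited raw read counts per gene and TPM values per gene. Tools named in the submitters' processing notes are STAR 2.5.2b, Subread featureCounts 1.5.2 and bcl2fastq 2.20. The sources used here do not give the build, annotation, strand setting or duplicate removal. Positions came from GENCODE M21, whose exon lengths gave the deposited ratio of TPM to counts within 0.1% for 80.1% of 3949 genes and 7 of 9 counted members.

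Counts were scaled to library totals. TMM (edgeR 4.0.16) and DESeq2 1.42.0 size factors, which rest on the 1158 genes counted in both libraries, were alternatives, as were housekeeping genes and totals without red cell or neutrophil genes. Ratios and shares carry exact Clopper-Pearson and single counts exact Poisson intervals (95%). Calls and ratio intervals on reads were tested on simulated Poisson counts of genes with at least 1000 normoxia counts. The molecule scale was not tested in this way.

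Members and lists were chosen with earlier results of these data known. The rule for other names took the 3 genes of each list with most counts, those with a larger share in CIH and at least 50 counts, and the 4 genes nearest to Apoe by normoxia count and by log2 CPM, without predicted, pseudo- and mitochondrial genes. Not all of these are reported here, and genes named at 0 in both libraries, the genes lower on molecules and Lpl, Lipa and Trem2 were added to it. Molecules at the lower quartile and the housekeeping list without Actb were chosen after seeing the data.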

Additional observations from a re-analysis of the deposited data

How the results depend on the processing

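The fold by which Apoe was lower moved from 3.43 on total counts to 5.98 with TMM, 5.76 with DESeq2 size factors and 2.61 with the housekeeping list without Actb. It kept its direction and the 2-fold rule under all 8 alternatives. The sum of all members, 6.07-fold lower, moved to 10.6, 10.2 and 4.62 under the same 3 scalings. Without Apoe it was 219.7-fold lower on reads, 5.63-fold on molecules and 8.45-fold at the lower quartile of reads per molecule. These folds take the 0 in CIH as 3, and the interval of the 5.63-fold starts at 4.39. With no member but Apoe counted in CIH, that sum could only come out lower. The number of members at least 2-fold lower, 9 on reads, was 1 on estimated molecules at either the median or the lower quartile of reads per molecule, and 8 at 4-fold. The bound for summed C1q was 65.8-fold on reads, with an interval that starts at 53.5. It was 50.1 with the housekeeping list without Actb, 1.69 on molecules and 2.53 on molecules at the lower quartile. For the 8 genes at 0 in CIH, bounds on reads ran from 13 to 51.4, and on molecules from 0.333 to 1.32, below 1 for 6 of them. Of 10 macrophage and pathway lists 8 took a smaller share in CIH, but 5 with the housekeeping list without Actb, and 1 by a molecule interval below equality, the chemokine list, which holds Ccr2 with 2308 of its 6977 normoxia counts. The cause of these moves was not tested, other than that the molecule scale raises the level a 0 allows. No paired analysis was possible because each group has 1 library, and no replicate could be left out. The depth of the CIH library limits all members, also Apoe, which rested on about 6.38 estimated molecules there.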

Other observations

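Other lists of resident macrophage genes were read beside all genes, of which 75.0% of those counted in normoxia were at 0 in CIH and 67.0% of those tested were lower on reads. Of 12 genes shared with microglia, 6 were counted in normoxia and 2 in CIH, and on reads 5 of 6 tested were lower and 1 higher. The fractalkine receptor gene Cx3cr1 had 1170 counts in normoxia and 6 in CIH, fewer than the estimated reads of 1 molecule there. The orphan receptor gene Gpr34 (379) and Fcrls (298) were at 0 in CIH. Of 15 genes of tissue-resident and perivascular macrophages, 5 were counted in normoxia and 1 in CIH. That gene was F13a1, the clotting factor XIII A chain, with 1041 and 126 counts, 479 and 869 CPM, while Mgl2 had 428 and 0. Of 27 chemokine genes 10 were counted in normoxia and 3 in CIH. The chemokine gene Ccl6 had 1574 and 0 counts, whereas Ccl9 had 339 and 146 and held a larger share in CIH.

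Scavenger and lectin receptor genes took 0.0833% of the normoxia and 0.167% of the CIH library, on 6 and 4 of 16 genes, with a ratio of 2.00 that was 1.15 with TMM. Clec12a (317 and 119 counts), Clec4a2 (203 and 71) and the fatty acid receptor gene Cd36 (299 and 45) were higher on reads, and Scarb1 (488 and 0) and Mgl2 were lower. The molecule interval of the list ratio reached down to 0.581 and so included equality.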
